A study of Mus musculus with 16 samples.

Results

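The tricarboxylic acid (TCA) cycle, the entry of pyruvate into it and the reactions that refill it were followed here through 32 genes in mouse heart. They were taken by symbol from a given list of cycle enzymes, subunits of the pyruvate dehydrogenase complex, the mitochondrial pyruvate carrier, anaplerotic enzymes and enzymes of the malate-aspartate and citrate routes. All 32 were found among the 55278 symbols of the count tables and all passed the filter on low counts, which left 18713 genes. RNA of whole heart tissue was sequenced in 16 libraries from male mice aged 8 to 12 weeks on a C57BL/6J background. Mice with loxP-flanked Ppara alleles (Ppara-flox, PPARa-Flox in the labels) were compared with mice deficient in the receptor PPARα in cardiomyocytes (PPARα-deficient, PPARa deficient in the labels). Each genotype received an intraperitoneal injection of bacterial endotoxin (lipopolysaccharide, LPS), used to model sepsis, at a dose of 5 mg/kg, or of its solvent phosphate-buffered saline (PBS), and hearts were collected 12 h later, with 4 libraries in each of the 4 groups. The labels name no Cre line and no group that carried Cre without the deletion, so the deletion and Cre itself cannot be told apart in the comparisons between genotypes. The labels do not say that each library is a separate mouse, and the p-values measure the spread between libraries, which may be technical. Aconitase 2 and succinate dehydrogenase are not among the 32 and are covered with the other genes of the pathway.

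Pyruvate made in the cytosol enters mitochondria through a carrier of paired proteins, MPC1 and MPC2, and the pyruvate dehydrogenase complex turns it into acetyl-CoA. Citrate synthase joins acetyl-CoA to oxaloacetate, and the cycle then releases carbon dioxide and passes electrons to NADH, FADH2 and the respiratory chain. In the heart most acetyl-CoA comes from fatty acids, whose oxidation genes PPARα switches on, and the rest largely from glucose, lactate and ketone bodies. Anaplerotic enzymes such as pyruvate carboxylase restore cycle intermediates that have been drawn off. The malate-aspartate shuttle carries the electrons of cytosolic NADH into mitochondria.

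Promoter sequences are given for 4 of the genes on which the results turn: Me1, which differed between the genotypes with and without LPS, Pdhb, which fell with LPS in both genotypes and whose higher call in PPARα-deficient LPS hearts lay at the threshold and was lost in 12 of 19 alternatives, Pcx, which rose with LPS, and Dlat, which fell with it. Each run comes from the 250 bases before the most upstream RefSeq start of the gene on GRCm38.p6, less any base that GENCODE vM21 places inside the gene (39 for Me1 and 33 for Pdhb), and is written 5′ to 3′ on the strand of the gene. Capitals mark a CCAAT box (CCAAT) or a GC box (GGGCGG) read on either strand.
Me1, chr9:86695954-86696164, minus strand: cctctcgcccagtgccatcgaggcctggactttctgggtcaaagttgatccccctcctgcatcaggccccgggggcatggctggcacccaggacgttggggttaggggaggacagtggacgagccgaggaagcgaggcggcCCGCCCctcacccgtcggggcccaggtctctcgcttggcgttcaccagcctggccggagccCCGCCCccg
Pdhb, chr14:8173026-8173242, minus strand: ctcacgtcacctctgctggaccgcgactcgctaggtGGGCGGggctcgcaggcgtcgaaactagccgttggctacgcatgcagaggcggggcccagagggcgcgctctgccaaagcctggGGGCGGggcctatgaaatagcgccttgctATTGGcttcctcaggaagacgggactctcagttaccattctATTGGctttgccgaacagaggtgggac
Pcx, chr19:4510222-4510471, plus strand: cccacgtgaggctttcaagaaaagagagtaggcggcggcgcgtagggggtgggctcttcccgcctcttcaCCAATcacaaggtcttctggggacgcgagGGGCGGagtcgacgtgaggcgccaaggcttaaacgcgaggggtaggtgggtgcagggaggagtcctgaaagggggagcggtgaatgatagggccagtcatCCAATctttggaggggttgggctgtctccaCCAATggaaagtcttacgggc
Dlat, chr9:50659781-50660030, minus strand: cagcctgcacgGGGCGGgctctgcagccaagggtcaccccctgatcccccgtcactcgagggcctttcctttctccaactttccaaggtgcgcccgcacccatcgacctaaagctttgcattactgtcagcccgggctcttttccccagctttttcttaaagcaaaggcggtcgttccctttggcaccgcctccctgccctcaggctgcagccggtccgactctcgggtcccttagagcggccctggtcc

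RefSeq promoters were matched by symbol for 30 of the 32 genes, and 6 motifs were searched on both strands in the 250 bases before each start. The GC box lay before 22 of the 30 and the CCAAT box before 15, against 35.4% and 37.5% of all 27025 genes with a promoter in the table. Unlike the runs above, the search took in every RefSeq start of a gene and kept bases that GENCODE vM21 places inside it. Some counted matches therefore lie inside the gene, and the CCAAT match counted for Me1 is not in its run above. These 27025 include genes that did not pass the filter on low counts. Shares among genes expressed in these hearts were not computed, so a trait particular to the 30 is not shown. The nuclear receptor core motif AAGGTCA was found before 1 of them, Got1, against 4.7% of all genes. None held the longer ERR motif TNAAGGTCA, which contains it (1.3% of all genes), the PPAR-RXR direct repeat with 1 base between its copies of AGGTCA (0.0407%) or the palindrome of NRF1 (0.877%). A match describes letters in a short window and is no evidence of binding. The search asked for the exact letters of each motif, so near matches were not counted. A missing match therefore does not show that a site is absent.

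Each library held between 65569134 and 75436023 estimated counts, of which the 32 genes took 1.25% to 1.69% and genes of the mitochondrial genome 22.5% to 29.8%. Levels are CPM, a library's counts scaled to a fixed total, with TMM factors, and fold changes are log2 values from edgeR's quasi-likelihood model with Benjamini-Hochberg adjustment over all 18713 genes and a threshold of 0.05. Ppara itself was at 59.3, 37.4, 47.7 and 56.4 CPM in Ppara-flox and 11.4, 17.6, 15.1 and 14.2 CPM in PPARα-deficient PBS libraries (-1.78 ± 0.28 SE, adjusted p = 0.00287), with no overlap. After LPS it was at 10.1, 7.23, 13.1 and 14.7 and 4.25, 6.32, 11.9 and 9.45 CPM, and the genotypes overlapped (-0.50 ± 0.27 SE, adjusted p = 0.651). The 5 pancreatic islet genes had 0 counts in every library, although the extraction text of the labels speaks of islets, and the 11 cardiomyocyte markers were counted in each. The numbers in the table headers are all higher for LPS than for PBS hearts, and the order of these numbers and LPS cannot be told apart. The PBS libraries carry 2 series of numbers, each with 2 libraries of either genotype.

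In Ppara-flox hearts given PBS the 32 genes spanned levels from 499 ± 15.3 CPM per kb of annotated exon for Ogdh to 1.02 ± 0.217 for Me2 (SD, n = 4). Ogdh encodes the decarboxylase of the 2-oxoglutarate dehydrogenase complex and Me2 an NAD-dependent mitochondrial malic enzyme. Idh2, the mitochondrial NADP-dependent isocitrate dehydrogenase, was at 488 ± 54.8 CPM per kb and Mdh1, the cytosolic malate dehydrogenase, at 409 ± 31.3. Ogdh and Idh2 did not differ beyond their spread, with 485 to 521 and 439 to 561 CPM per kb. Next in order came the shuttle gene Got1 and the pyruvate dehydrogenase gene Pdha1, at 328 ± 12.6 and 309 ± 17.2 CPM per kb. Citrate synthase (Cs) stood at 231 ± 7.43 CPM per kb and the mitochondrial malate dehydrogenase gene Mdh2 at 289 ± 19.4. The lower ranks held Mpc1 at 27.0 ± 1.33 CPM per kb, the cytosolic malic enzyme gene Me1 at 30.6 ± 2.36, the pyruvate carboxylase gene Pcx at 8.55 ± 0.673, the ATP citrate lyase gene Acly at 7.30 ± 0.986 and the malic enzyme gene Me3 at 4.94 ± 0.303. Neighbouring ranks often overlapped, as for Me1, Dlst and Mpc2 at 30.6 ± 2.36, 30.5 ± 1.71 and 33.6 ± 2.07 CPM per kb. Exon lengths are those of all annotated exons together, which is longer than the main transcript of many genes and lowers their value per kb.

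**Figure D1:**
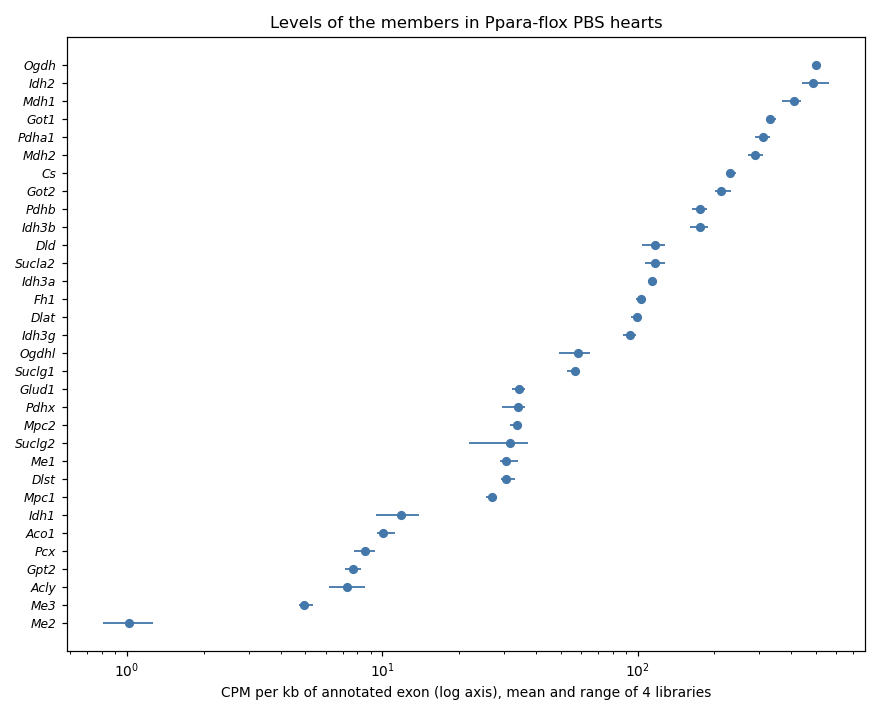
Levels of the 32 genes in the 4 Ppara-flox PBS libraries as CPM per kb of annotated exon on a log axis, with points for means and lines from the lowest to the highest library. The oxoglutarate dehydrogenase gene Ogdh stands at the top and the malic enzyme genes Me3 and Me2 at the bottom.

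After LPS more of these genes fell than rose in both genotypes, with most falls in pyruvate entry and the cycle itself. The genes of pyruvate carboxylase and ATP citrate lyase rose in both genotypes. Of the malic enzyme genes, Me2 was called higher in Ppara-flox hearts alone and Me1 in PPARα-deficient hearts alone. In PPARα-deficient hearts Me2 was called in 5 of 19 alternatives, and the call of Me1 was lost in 8 of 19. The log2 responses of the genotypes differed by -0.15 for Me2 and 0.08 for Me1. Neither difference passed (edgeR adjusted p = 0.999 for each), so no response particular to a genotype was shown. In Ppara-flox hearts 21 of the 32 fell, 3 rose and 8 did not pass, where 19.1% of all genes tested fell and 20.2% rose. In PPARα-deficient hearts 15 fell and 3 rose, against 18.3% and 19.4% of all genes. Of the 8519 genes at least as abundant as the lowest of the 32, 25.9% fell and 27.0% rose in Ppara-flox hearts, with 25.3% and 26.3% in PPARα-deficient hearts. The median log2 fold change of the 32 genes was -0.23 in Ppara-flox and -0.18 in PPARα-deficient hearts, against 0.01 in both over all genes. Of the 32 genes 15 fell in both genotypes, 2 rose in both (Pcx and Acly) and none was called in opposite directions. In Ppara-flox hearts 18 of the 24 calls held in each alternative of normalization, filter, tool and libraries, as did 13 of the 18 in PPARα-deficient hearts, and the others are given with the values at which they were lost.

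**Figure D2:**
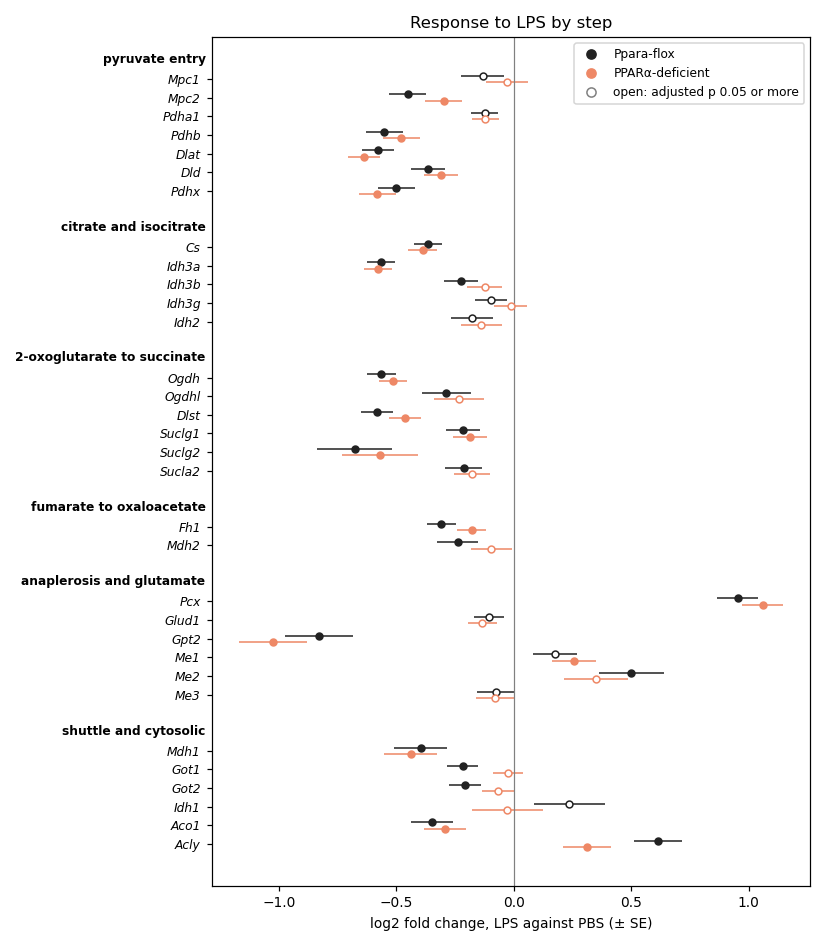
Log2 fold changes of LPS against PBS hearts (± SE, 4 libraries a group) for the 32 genes, grouped by step, in Ppara-flox (black) and PPARα-deficient hearts (orange), with filled points where the adjusted p was under 0.05. Most points lie left of 0, while Pcx and Acly lie right of it in both genotypes and Gpt2 and Pcx mark the ends of the range.

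Of the 7 genes of pyruvate entry 5 fell in either genotype, Mpc2, Pdhb, Dlat, Dld and Pdhx, and Mpc1 and Pdha1 did not pass. Over all genes 19.1% fell in Ppara-flox and 18.3% in PPARα-deficient hearts. Dlat, whose product is the acetyltransferase core of the pyruvate dehydrogenase complex (chromosome 9, 50634633 to 50659780, minus strand, protein coding), was at 495, 489, 459.7 and 505 CPM in the 4 Ppara-flox PBS libraries and at 329.7, 308, 345 and 322 CPM after LPS. In PPARα-deficient hearts it was at 464, 487, 485 and 511 CPM under PBS and 285, 299, 339 and 327 CPM after LPS. Every LPS library lay below every PBS library, and the log2 fold change was -0.58 ± 0.07 SE, adjusted p = 4.69e-06 in Ppara-flox and -0.64 ± 0.07 SE, adjusted p = 1.8e-06 in PPARα-deficient hearts. Pdhx, encoding the protein that anchors the dihydrolipoyl dehydrogenase to that core, was at 142, 139, 115 and 140.1 CPM in Ppara-flox PBS and 95.2, 91.6, 101 and 91.4 CPM in Ppara-flox LPS libraries. The groups again did not overlap (-0.50 ± 0.08 SE, adjusted p = 8.49e-05), nor did they in PPARα-deficient hearts, at 136, 143, 143 and 143 CPM under PBS and 87.1, 89.6, 102 and 98.3 CPM after LPS (-0.58 ± 0.08 SE, adjusted p = 2e-05).

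The decarboxylase of the complex is built from the products of Pdha1 and Pdhb, and of these genes Pdhb fell and Pdha1 did not pass. Pdhb (chromosome 14, 8165996 to 8173025, minus strand, protein coding) was at 678, 719.8, 630.2 and 691 CPM in Ppara-flox PBS and 467, 453, 462 and 472 CPM in Ppara-flox LPS libraries (-0.55 ± 0.08 SE, adjusted p = 3.52e-05). In PPARα-deficient hearts its levels were 837, 798, 844 and 783 CPM under PBS and 500.2, 572, 680.4 and 587 CPM after LPS (-0.48 ± 0.08 SE, adjusted p = 0.000148). Both comparisons were without overlap. Pdha1, on the X chromosome, was at 1154 ± 64.4 CPM under PBS and 1058 ± 19.1 CPM after LPS in Ppara-flox hearts (-0.12 ± 0.06 SE, adjusted p = 0.107), and had -0.12 ± 0.06 SE in PPARα-deficient hearts (adjusted p = 0.119). It fell with upper-quartile factors, which moved the median of all genes by -0.06 and -0.05 on the log2 scale (adjusted p = 0.0182 in Ppara-flox and 0.0274 in PPARα-deficient hearts), and by DESeq2 in Ppara-flox hearts (adjusted p = 0.0446). The ratio of Pdha1 to Pdhb counts within a library, which no scaling factor can change, was 1.74, 1.498, 1.79 and 1.78 in Ppara-flox PBS and 2.32, 2.32, 2.24 and 2.26 in Ppara-flox LPS hearts (log2 difference 0.43, two-sided exact permutation p = 0.0286, adjusted over the 10 pairs 0.0952). For 4 libraries against 4 this exact p is the smallest possible. In PPARα-deficient hearts the ratio was 1.39, 1.45, 1.35 and 1.52 under PBS and 2.09, 1.90, 1.66 and 1.70 after LPS, also without overlap (log2 difference 0.36, two-sided exact permutation p = 0.0286, adjusted over the 10 pairs 0.0952).

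Mpc2, encoding one partner of the mitochondrial pyruvate carrier, was at 233, 260.0, 260.0 and 235 CPM in Ppara-flox PBS and 177, 197, 192 and 156 CPM in Ppara-flox LPS hearts (-0.45 ± 0.08 SE, adjusted p = 0.000226). In PPARα-deficient hearts it was at 250.1, 245, 235 and 220.0 CPM under PBS and 189.8, 202, 184 and 195 CPM after LPS (-0.30 ± 0.08 SE, adjusted p = 0.00624), and neither genotype showed overlap. Mpc1 had -0.13 ± 0.09 SE and -0.03 ± 0.09 SE (adjusted p = 0.273 and 0.838), and did not pass. Within libraries the ratio of Mpc1 to Mpc2 counts was 0.211 to 0.251 under PBS and 0.254 to 0.344 after LPS in Ppara-flox hearts (log2 difference 0.32, two-sided exact permutation p = 0.0286, adjusted over the 10 pairs 0.0952). In PPARα-deficient hearts the ranges were 0.231 to 0.253 and 0.245 to 0.343 and overlapped. Dld, encoding the dihydrolipoyl dehydrogenase that the pyruvate and 2-oxoglutarate complexes share, fell by 0.37 (SE 0.07, adjusted p = 0.000781) and 0.31 (SE 0.07, adjusted p = 0.0029) on the log2 scale in the respective genotypes.

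At the step from oxaloacetate to 2-oxoglutarate, Cs and Idh3a fell in both genotypes. Cs (chromosome 10, 128337734 to 128362479, plus strand, protein coding) was at 1304, 1399, 1320.3 and 1318 CPM in Ppara-flox PBS libraries and 1011, 1035, 1060.1 and 1035 CPM after LPS. In PPARα-deficient hearts Cs was at 1260.1, 1290.1, 1135 and 1176 CPM under PBS and 918, 907, 999 and 889 CPM after LPS. The LPS libraries lay below the PBS libraries in either genotype (-0.37 ± 0.06 SE, adjusted p = 0.000138 in Ppara-flox, -0.39 ± 0.06 SE, adjusted p = 8.19e-05 in PPARα-deficient hearts). NAD-dependent isocitrate dehydrogenase has a catalytic subunit from Idh3a and regulatory partners from Idh3b and Idh3g. Idh3a was at 569, 585, 558 and 596 CPM in Ppara-flox PBS and 398, 404, 398 and 360.0 CPM in Ppara-flox LPS hearts (-0.56 ± 0.06 SE, adjusted p = 1.27e-06). The PPARα-deficient groups had 573, 611, 579 and 628 CPM under PBS and 402, 405, 397 and 398 CPM after LPS (-0.58 ± 0.06 SE, adjusted p = 1.07e-06), again with no overlap. Idh3b fell in Ppara-flox hearts (-0.23 ± 0.07 SE, adjusted p = 0.0216) and did not pass in PPARα-deficient hearts (-0.12 ± 0.07 SE), and Idh3g passed in neither (-0.10 ± 0.07 SE and -0.01 ± 0.07 SE). The Idh3b call was lost when single libraries were left out (adjusted p = 0.0576 to 0.0672 without Ppara-flox PBS replicates 2 or 3 or Ppara-flox LPS replicate 4). The count ratio of Idh3a to Idh3g, a pair picked after its values were seen and given with no test, was 2.10 to 2.42 under PBS and 1.61 to 1.69 after LPS in Ppara-flox hearts, and 2.24 to 2.79 and 1.55 to 1.72 in PPARα-deficient hearts. The mitochondrial NADP enzyme gene Idh2 did not pass in Ppara-flox (-0.18 ± 0.09 SE) or PPARα-deficient hearts (-0.14 ± 0.09 SE).

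All 6 genes from 2-oxoglutarate to succinate fell in Ppara-flox hearts and 4 of them in PPARα-deficient hearts, where 19.1% and 18.3% of all genes fell. The calls of Ogdhl, Suclg1 and Sucla2 in Ppara-flox hearts were lost in 8, 3 and 8 of 19 alternatives. That of Suclg1 in PPARα-deficient hearts was lost in 12 of 19. Ogdh (chromosome 11, 6291633 to 6356642, plus strand, protein coding) was at 2693, 2841, 2718 and 2645 CPM in Ppara-flox PBS and 1896, 1857, 1877 and 1739 CPM in Ppara-flox LPS libraries. The PPARα-deficient libraries had 2793, 2668, 2467 and 2455 CPM under PBS and 1809, 1714, 1912 and 1832 CPM after LPS. With no overlap in either genotype, the log2 fold change was -0.56 ± 0.06 SE, adjusted p = 1.8e-06 and -0.51 ± 0.06 SE, adjusted p = 4.95e-06. Dlst, the succinyltransferase core of the same complex, went from 289, 315, 284 and 278 to 199.97, 181, 199 and 199.8 CPM in Ppara-flox hearts (-0.58 ± 0.07 SE, adjusted p = 4.11e-06) and from 275, 281, 270.2 and 277 to 182, 195, 212 and 210.3 CPM in the PPARα-deficient groups (-0.46 ± 0.07 SE, adjusted p = 4.44e-05), without overlap. Ogdhl, a paralogue of Ogdh, fell in Ppara-flox hearts (-0.29 ± 0.11 SE, adjusted p = 0.0404) and did not pass in PPARα-deficient hearts (-0.23 ± 0.11 SE, adjusted p = 0.0942). Its call in Ppara-flox hearts was lost in several alternatives (adjusted p = 0.0603 to 0.124 without Ppara-flox PBS replicates 2, 3 or 4 or Ppara-flox LPS replicates 2 or 4, and 0.057 with no filter on low counts, 0.0503 with the 8 compared libraries fitted alone), and it was called lower in PPARα-deficient hearts in others (adjusted p = 0.0219 without PPARα-deficient PBS replicate 2, and 0.0489 with upper-quartile factors).

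Succinyl-CoA ligase pairs the shared subunit from Suclg1 with a GDP-forming partner from Suclg2 or an ADP-forming partner from Sucla2. Suclg2 was at 162, 150.5, 101 and 173 CPM in Ppara-flox PBS and 94.7, 84.6, 89.1 and 97.6 CPM in Ppara-flox LPS libraries, and at 163, 150.0, 178 and 167 and 89.4, 99.1, 104 and 152 CPM in the PPARα-deficient groups. PPARα-deficient LPS replicate 4 reached the range of the PBS libraries, and Ppara-flox PBS replicate 3 was nearer to the LPS libraries than to its own group. The fall was -0.68 ± 0.16 SE, adjusted p = 0.00301 in Ppara-flox and -0.57 ± 0.16 SE, adjusted p = 0.01 in PPARα-deficient hearts. Sucla2 fell by 0.21 on the log2 scale in Ppara-flox hearts (SE 0.08, adjusted p = 0.0393) and had -0.18 ± 0.08 SE in PPARα-deficient hearts (adjusted p = 0.0831). The call of Sucla2 in Ppara-flox hearts was lost in some alternatives (adjusted p = 0.0566 to 0.133 without Ppara-flox PBS replicates 1 or 4 or Ppara-flox LPS replicates 2, 3 or 4, and 0.0579 with no filter on low counts, 0.0735 with the 8 compared libraries fitted alone), and it was gained in PPARα-deficient hearts in another (0.0274 with upper-quartile factors). Within libraries the ratio of Sucla2 to Suclg2 counts was 2.99, 2.83, 4.34 and 2.96 in Ppara-flox PBS and 4.56, 4.85, 4.11 and 4.06 in Ppara-flox LPS hearts, with overlap (log2 difference 0.44, two-sided exact permutation p = 0.0857, adjusted over the 10 pairs 0.143). Suclg1 fell in both genotypes, with -0.22 ± 0.07 SE, adjusted p = 0.024 and -0.19 ± 0.07 SE, adjusted p = 0.0494. The Suclg1 call was lost in Ppara-flox hearts at adjusted p = 0.0689 to 0.0761 without Ppara-flox PBS replicate 4 or Ppara-flox LPS replicate 4, and 0.0541 with the 8 compared libraries fitted alone. In PPARα-deficient hearts Suclg1 was lost at adjusted p = 0.0548 to 0.126 without PPARα-deficient PBS replicates 1, 2, 3 or 4 or PPARα-deficient LPS replicates 2, 3 or 4, and 0.0529 with genes of the mitochondrial genome left out, 0.0615 with no filter on low counts, 0.0543 with the header number series as a block, 0.0701 with the 8 compared libraries fitted alone. Closing the cycle, the fumarase gene Fh1 fell in both genotypes. It was at 334, 358, 360.2 and 349 CPM under PBS and 295, 279, 285 and 272 CPM after LPS in Ppara-flox hearts. In PPARα-deficient ones it was at 369.7, 349, 328 and 332 and 322, 299, 307 and 290.1 CPM, and the treatments did not overlap in either genotype (-0.31 ± 0.06 SE, adjusted p = 0.000801 and -0.18 ± 0.06 SE, adjusted p = 0.0314). The mitochondrial malate dehydrogenase gene Mdh2 fell in Ppara-flox hearts, from 962, 1104, 1073 and 982 to 916, 981, 829 and 765 CPM with overlap (-0.24 ± 0.09 SE, adjusted p = 0.0383) and had -0.10 ± 0.09 SE in PPARα-deficient hearts (adjusted p = 0.426). Fh1 was not called in PPARα-deficient hearts in some alternatives (adjusted p = 0.0511 to 0.11 without PPARα-deficient PBS replicates 1 or 2 or PPARα-deficient LPS replicates 2, 3 or 4, and 0.0778 with the 8 compared libraries fitted alone), nor was Mdh2 in Ppara-flox hearts (adjusted p = 0.063 to 0.116 without Ppara-flox PBS replicates 2 or 3 or Ppara-flox LPS replicates 3 or 4, and 0.0607 with no filter on low counts, 0.0626 with the 8 compared libraries fitted alone).

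Of the 6 genes of anaplerosis and glutamate exchange 2 rose and 1 fell in either genotype, numbers close to what the shares over all genes would give (20.2% higher and 19.1% lower in Ppara-flox, 19.4% and 18.3% in PPARα-deficient hearts). Pcx, encoding pyruvate carboxylase, which makes oxaloacetate from pyruvate (chromosome 19, 4510472 to 4621752, plus strand, protein coding), was at 36.7, 40.8, 44.6 and 40.4 CPM in Ppara-flox PBS and 85.0, 71.8, 71.6 and 86.2 CPM in Ppara-flox LPS libraries. In PPARα-deficient hearts it went from 50.5, 46.1, 48.1 and 44.7 to 106, 92.8, 102 and 94.0 CPM. Every LPS library was above every PBS library, a rise of 1.94-fold in Ppara-flox (0.95 ± 0.09 SE, adjusted p = 2.69e-07) and 2.08-fold in PPARα-deficient hearts (1.06 ± 0.09 SE, adjusted p = 1e-07). The count ratio of Pcx to Pdha1, the start of the other route of pyruvate and again a pair picked with its values known, was 0.0311 to 0.0395 and 0.0683 to 0.081 in the PBS and LPS libraries of Ppara-flox hearts. Gpt2, encoding the mitochondrial alanine aminotransferase, which links pyruvate and glutamate to alanine and 2-oxoglutarate, fell. It was at 44.6, 40.4, 41.6 and 46.6 CPM under PBS and 31.5, 27.2, 21.3 and 17.5 CPM after LPS in Ppara-flox hearts, and at 44.03, 39.8, 42.7 and 43.2 and 22.8, 20.4, 17.1 and 22.9 CPM in PPARα-deficient hearts. Neither genotype showed overlap, and the levels fell 1.78-fold (-0.83 ± 0.14 SE, adjusted p = 0.000214) and 2.04-fold (-1.03 ± 0.14 SE, adjusted p = 2.99e-05).

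The glutamate dehydrogenase gene Glud1 had -0.11 ± 0.06 SE in Ppara-flox and -0.13 ± 0.06 SE in PPARα-deficient hearts and passed in neither (adjusted p = 0.2 and 0.104), though it passed with upper-quartile factors in both (adjusted p = 0.0492 and 0.0299) and by DESeq2 in PPARα-deficient hearts (adjusted p = 0.0386). Malic enzymes turn malate into pyruvate. Me2 rose in Ppara-flox hearts, from 8.14, 9.20, 6.28 and 5.85 to 11.2, 10.3, 9.74 and 10.4 CPM without overlap (0.50 ± 0.14 SE, adjusted p = 0.00833), and had 0.35 ± 0.14 SE in PPARα-deficient hearts (adjusted p = 0.055, or adjusted p = 0.0361 without PPARα-deficient LPS replicate 1, and 0.0483 with DESeq2's Wald test, 0.045 with limma-voom, 0.0453 with at least 1 CPM asked for in 8 libraries, 0.0326 with the 8 compared libraries fitted alone). Me3 passed in neither genotype (-0.08 ± 0.08 SE and -0.08 ± 0.08 SE). Me1 had 0.18 ± 0.09 SE in Ppara-flox hearts (adjusted p = 0.149, or adjusted p = 0.0465 without Ppara-flox LPS replicate 3) and rose in PPARα-deficient hearts (0.26 ± 0.09 SE, adjusted p = 0.0386). The rise of Me1 was lost in some alternatives (adjusted p = 0.0545 to 0.107 without PPARα-deficient PBS replicates 1 or 2 or PPARα-deficient LPS replicates 1, 2 or 3, and 0.0812 with upper-quartile factors, 0.0685 with no filter on low counts).

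Among the shuttle and cytosolic enzymes, Mdh1 and Aco1 fell in both genotypes. Mdh1 went from 947, 1107, 1119 and 1026 to 936, 739, 846 and 668 CPM in Ppara-flox hearts (-0.40 ± 0.11 SE, adjusted p = 0.00964). In PPARα-deficient hearts it was at 1120.5, 1309, 1229 and 966 CPM under PBS and 848, 789, 806 and 969 CPM after LPS (-0.44 ± 0.11 SE, adjusted p = 0.00516), where a PBS and an LPS library overlapped. Aco1, a cytosolic aconitase that also serves as an iron-regulated RNA-binding protein, was at 44.1, 50.6, 43.0 and 44.03 CPM in Ppara-flox PBS and 34.2, 36.1, 38.1 and 34.2 CPM in Ppara-flox LPS libraries without overlap (-0.35 ± 0.09 SE, adjusted p = 0.005). In PPARα-deficient hearts it was at 44.7, 46.4, 38.7 and 46.9 CPM under PBS and 31.4, 35.1, 38.6 and 39.1 CPM after LPS, with overlap (-0.29 ± 0.09 SE, adjusted p = 0.016). The Aco1 call in PPARα-deficient hearts was lost at adjusted p = 0.0607 without PPARα-deficient LPS replicate 1. The aspartate aminotransferase genes Got1 and Got2 fell in Ppara-flox hearts, from 834 ± 32.04 to 717 ± 45.9 CPM for Got1 and from 1026 ± 66.4 to 889 ± 40.3 CPM for Got2 (-0.22 ± 0.07 SE, adjusted p = 0.014 and -0.21 ± 0.07 SE, adjusted p = 0.0217). In PPARα-deficient hearts they had -0.02 ± 0.07 SE and -0.07 ± 0.07 SE and did not pass, and the Got2 call in Ppara-flox hearts was lost at adjusted p = 0.0567 to 0.0793 without Ppara-flox PBS replicate 2 or Ppara-flox LPS replicate 4, and 0.0505 with the 8 compared libraries fitted alone. Acly, which splits exported citrate into acetyl-CoA for lipid synthesis, rose from 45.3, 38.0, 38.4 and 32.6 to 65.5, 49.7, 58.8 and 62.1 CPM in Ppara-flox hearts (0.61 ± 0.10 SE, adjusted p = 0.000145), with no overlap. The PPARα-deficient values were 39.8, 40.3, 41.9 and 43.0 and 46.2, 51.5, 51.6 and 55.3 CPM (0.31 ± 0.10 SE, adjusted p = 0.0236). The Acly call in PPARα-deficient hearts was lost at adjusted p = 0.0544 to 0.0675 without PPARα-deficient PBS replicates 1 or 2 or PPARα-deficient LPS replicate 4, and 0.0503 with upper-quartile factors. Idh1, the cytosolic NADP-dependent isocitrate dehydrogenase gene, passed in neither genotype (0.24 ± 0.15 SE and -0.03 ± 0.15 SE).

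The summed level of the 32 genes was 15702 to 16664 CPM in Ppara-flox PBS and 12253 to 13298 CPM in Ppara-flox LPS libraries, and 15423 to 16535 and 12903 to 13499.6 CPM in the PPARα-deficient groups. The LPS libraries lay below the PBS libraries in both genotypes. Markers of cardiomyocytes, of smooth muscle and pericytes and of macrophages moved with it. The summed level of the cardiomyocyte markers was 71965 to 78200.1 CPM under PBS and 39988 to 46333 CPM after LPS in Ppara-flox hearts, and 67895 to 74288 and 45103 to 50066 CPM in PPARα-deficient hearts. Of the 11 markers 10 fell in Ppara-flox (median -0.40) and 7 in PPARα-deficient hearts (median -0.35), and none rose by edgeR. The 7 neutrophil markers summed to 3.54 to 5.17 and 59.1 to 107 CPM in the PBS and LPS libraries of Ppara-flox hearts, with Ly6g at 0 under PBS, and to 4.06 to 10.9 and 51.8 to 85.6 CPM in PPARα-deficient hearts. The sum of the 32 genes as a percentage of the cardiomyocyte marker sum was 21.2% to 22.4% under PBS and 28.2% to 30.6% after LPS in Ppara-flox hearts, and 22.1% to 22.7% and 27.0% to 28.7% in PPARα-deficient hearts. The log2 fold changes of single cardiomyocyte markers ran from -2.18 to -0.21 in Ppara-flox and from -1.56 to 0.03 in PPARα-deficient hearts. A sum gives most weight to the most abundant markers, so this percentage does not stand for each of them. Smooth muscle and pericyte markers summed to 769 to 822 and 384 to 456 CPM in the Ppara-flox groups and to 712 to 794 and 369 to 402 CPM in the PPARα-deficient groups, and 5 of the 6 fell in either genotype. Macrophage markers summed to 262 to 313 and 137 to 181 CPM in the Ppara-flox groups and to 293 to 346 and 161 to 224 CPM in the PPARα-deficient groups, with 4 of 8 lower and 1 higher in either genotype. Of the 7 fibroblast markers 4 fell and 1 rose in either genotype, and of the 7 endothelial markers 2 fell. Of the 5 erythroid markers 2 fell in PPARα-deficient hearts. Beside these counts, 19.1% of all genes fell and 20.2% rose in Ppara-flox hearts, with 18.3% and 19.4% in PPARα-deficient hearts. In bulk tissue, fewer cells of a type and less RNA per cell cannot be told apart, and the part of these markers in the falls and rises was not tested.

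Between the genotypes Me1 was the gene called under both treatments. It encodes the cytosolic NADP-dependent malic enzyme, which yields pyruvate and NADPH (chromosome 9, 86581371 to 86695953, minus strand, protein coding). Under PBS it was at 116, 111, 113 and 131 CPM in Ppara-flox and 65.9, 66.5, 74.8 and 76.3 CPM in PPARα-deficient libraries. After LPS the values were 144, 147, 111 and 130.1 and 82.4, 88.7, 88.3 and 79.0 CPM. Every PPARα-deficient library was below every Ppara-flox library under either treatment. The level was 1.66-fold lower in PPARα-deficient hearts under PBS (-0.73 ± 0.09 SE, adjusted p = 0.000354) and 1.57-fold lower after LPS (-0.65 ± 0.09 SE, adjusted p = 0.000797). These comparisons rest on separate libraries, and the call held in each alternative. Within the PBS libraries with header numbers under 1000 the log2 ratio of the genotype means was -0.78, and in those over 1000 it was -0.69 (2 libraries a genotype in each).

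Me1 was also the sole gene of the 32 called under PBS (1 lower, 0 higher), where 0.401% of all 18713 genes were called lower and 0.0321% higher. Among the 8519 genes at least as abundant as the lowest of the 32 these shares were 0.763% and 0.0352%. DESeq2 and limma-voom also called 1 lower and 0 higher. An unadjusted p under 0.05 was found for 4 of the 32 by edgeR and for 5 by DESeq2 and by limma-voom. The median log2 difference of the 32 was -0.0038 under PBS. After LPS 1 gene was lower (Me1) and 1 higher (Pdhb), against 0.85% lower and 0.385% higher over all genes and 1.55% and 0.693% over the 8519, and the median was 0.03. The 5 adipocyte markers together were at most 0.932 CPM in any library, with Adipoq and Lep at 0 in both LPS groups. Fat cells are rich in Me1 and Acly transcripts, and their part in the levels of these genes was not tested.

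**Figure D3:**
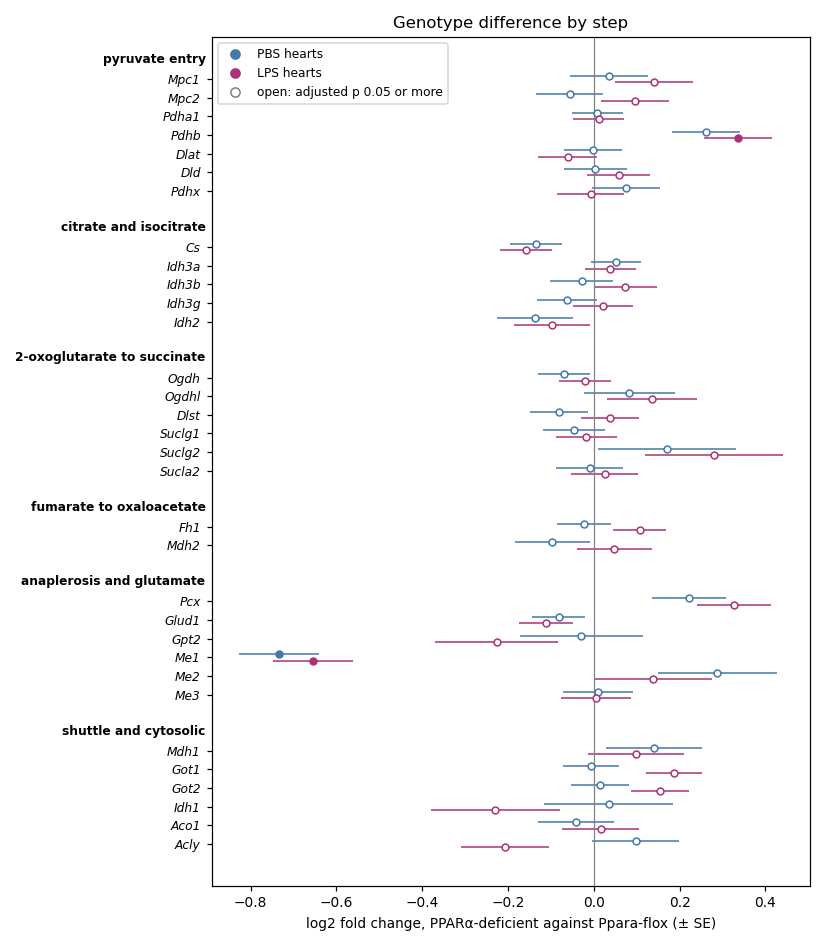
Log2 differences of PPARα-deficient against Ppara-flox hearts (± SE, 4 libraries a group) for the 32 genes by step, in PBS (blue) and LPS hearts (purple), with filled points where the adjusted p was under 0.05. Me1 lies far left of the other genes under both treatments, and Pdhb lies to the right under both and is filled after LPS alone.

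Pdhb was higher in PPARα-deficient hearts after LPS (0.34 ± 0.08 SE, adjusted p = 0.0496), just inside the threshold. With LPS the PPARα-deficient libraries were at 500.2, 572, 680.4 and 587 CPM and the Ppara-flox libraries at 467, 453, 462 and 472 CPM, without overlap. The call was lost in several alternatives (adjusted p = 0.0783 to 0.152 without Ppara-flox LPS replicates 1, 2, 3 or 4 or PPARα-deficient LPS replicates 2, 3 or 4, and 0.0506 with RLE factors, 0.0896 with no filter on low counts, 0.0562 with the header number series as a block, 0.267 with the 8 compared libraries fitted alone). It was kept by DESeq2 and limma-voom. Under PBS the libraries did not overlap either, at 837, 798, 844 and 783 and 678, 719.8, 630.2 and 691 CPM, with 0.26 ± 0.08 SE, adjusted p = 0.36. The ratio of Pdha1 to Pdhb counts was 1.66 to 2.09 in PPARα-deficient and 2.24 to 2.32 in Ppara-flox LPS libraries (log2 difference -0.32, two-sided exact permutation p = 0.0286, adjusted over the 10 pairs 0.0714). Under PBS it was 1.35 to 1.52 and 1.498 to 1.79, with overlap (log2 difference -0.25, two-sided exact permutation p = 0.0571, adjusted over the 10 pairs 0.143).

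Cs and Pcx had no overlap between the genotypes under either treatment but did not pass. Of the 32 genes 4 had no overlap between the genotypes under PBS and 7 after LPS. The share of all genes without overlap was not computed in any comparison, so the separation is not shown to be particular to these genes. Pcx separated narrowly under PBS, with 44.6 CPM in the highest Ppara-flox and 44.7 CPM in the lowest PPARα-deficient library. Cs had -0.14 ± 0.06 SE under PBS and -0.16 ± 0.06 SE after LPS (adjusted p = 0.845 and 0.381). Pcx had 0.22 ± 0.09 SE and 0.33 ± 0.09 SE (adjusted p = 0.677 and 0.0921), and DESeq2 called it after LPS (adjusted p = 0.0187). The other malic enzyme genes did not pass, with 0.29 ± 0.14 SE for Me2 and 0.01 ± 0.08 SE for Me3 under PBS. The count ratio of Me3 to Me1 was 0.614, 0.707, 0.62 and 0.525 in Ppara-flox and 1.27, 0.995, 0.907 and 0.963 in PPARα-deficient PBS libraries (log2 difference 0.74, two-sided exact permutation p = 0.0286, adjusted over the 10 pairs 0.0952). After LPS it was 0.465 to 0.608 and 0.696 to 0.868, again without overlap.

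**Figure D4:**
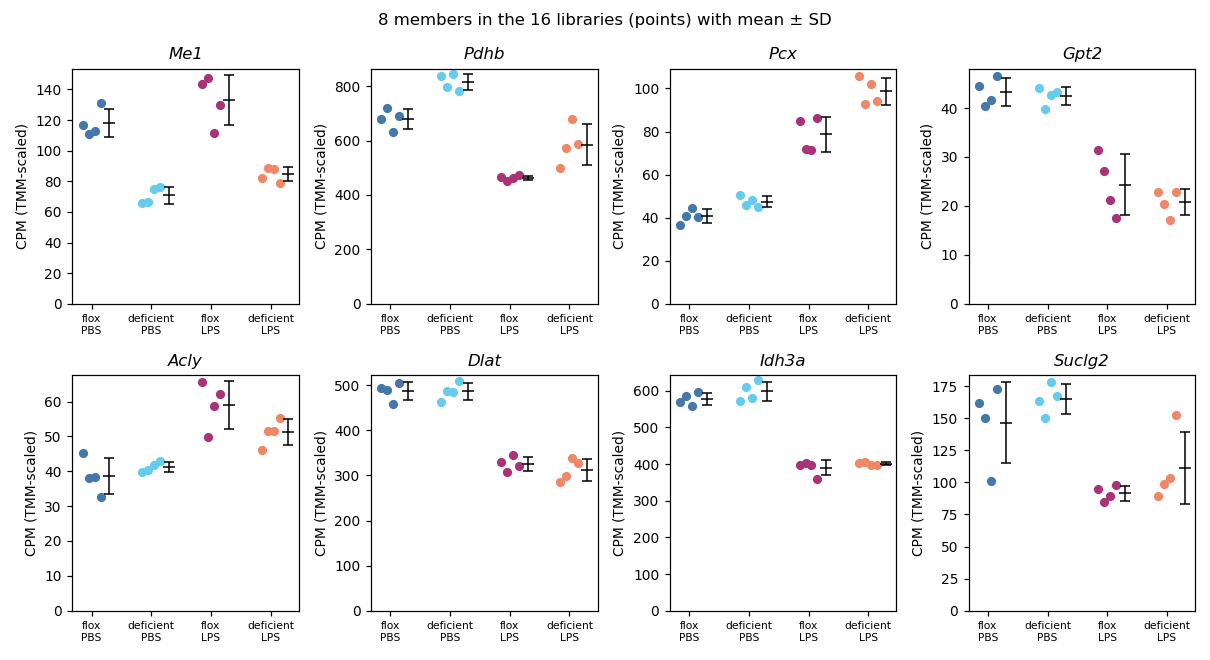
Levels of 8 of the genes in all 16 libraries (points, TMM-scaled CPM, axis from 0) with the mean and SD of each group of 4. The genotypes do not overlap within either treatment for Me1, Pcx and Pdhb, the treatments do not overlap within either genotype for Pcx, Pdhb, Gpt2, Acly, Dlat and Idh3a, and Suclg2 has a PBS and an LPS library that lie with the other treatment.

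Whether the genotypes responded differently to LPS was tested with the interaction term, which subtracts the log2 response of the Ppara-flox hearts from that of the PPARα-deficient hearts. None of the 32 genes passed by edgeR, DESeq2 or limma-voom, with 0, 1 and 2 at an unadjusted p under 0.05, and of all genes tested 0% were lower and 0% higher by edgeR. The estimates ran from -0.30 for Acly to 0.19 for Got1, with standard errors of 0.083 to 0.227. The smallest unadjusted p was 0.0505, for Acly (adjusted p = 0.87). The 21 falls in Ppara-flox and 15 in PPARα-deficient hearts are thus counts between which no difference was shown. The estimate was above 0 for 21 of all 32 genes.

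Genes of the pathway outside the 32 also fell and rose after LPS. Of 41 listed symbols 38 were tested, and 21 fell and 7 rose in Ppara-flox hearts, with 19 and 6 in PPARα-deficient hearts (median log2 fold changes -0.31 and -0.29). Over all genes 19.1% fell and 20.2% rose in Ppara-flox hearts and 18.3% and 19.4% in PPARα-deficient hearts, so the rises were no more frequent than in all genes. Sdhaf4, an assembly factor of succinate dehydrogenase, went from 20.1 ± 1.45 to 9.66 ± 0.635 CPM in the Ppara-flox and from 21.3 ± 2.42 to 10.8 ± 0.437 CPM in the PPARα-deficient groups (-1.06 ± 0.10 SE, adjusted p = 3.36e-07 and -0.98 ± 0.10 SE, adjusted p = 8.11e-07). Pdp1 and Pdp2, whose products are the phosphatases that switch pyruvate dehydrogenase on, fell in both genotypes, with -0.86 ± 0.12 SE and -0.67 ± 0.12 SE for Pdp1 and -1.36 ± 0.17 SE and -0.70 ± 0.17 SE for Pdp2. The kinase gene Pdk4, which acts against them, rose in both (1.74 ± 0.28 SE and 1.72 ± 0.28 SE). Slc25a1, the mitochondrial citrate exporter that supplies ATP citrate lyase, rose from 3.52 ± 1.05 to 9.89 ± 1.68 CPM in Ppara-flox hearts (1.49 ± 0.21 SE, adjusted p = 2.86e-05), and by 1.05 ± 0.21 SE in PPARα-deficient hearts. Falls included the cytosolic alanine aminotransferase gene Gpt (-0.63 ± 0.09 SE and -0.65 ± 0.09 SE) and the succinate dehydrogenase membrane anchor gene Sdhd (-0.45 ± 0.07 SE and -0.43 ± 0.07 SE). Between the genotypes 0 of the 38 passed by edgeR or limma-voom under PBS (6 with an unadjusted p under 0.05 by each) or after LPS (5 by edgeR and 6 by limma-voom). DESeq2 called Pdk4 lower in PPARα-deficient hearts under both treatments and Pdp1 higher after LPS. In edgeR these were -0.98 ± 0.28 SE, adjusted p = 0.276 and -0.99 ± 0.28 SE, adjusted p = 0.119 for Pdk4 and 0.49 ± 0.12 SE, adjusted p = 0.0512 for Pdp1.

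Of the 10 ratios of paired genes tested by the exact permutation test, 0 reached an adjusted p under 0.05 in any of the 4 group comparisons. The smallest two-sided exact p that 4 libraries against 4 allow is 0.0286, and the smallest adjusted value reached was 0.0714. A single pair at that smallest p cannot pass after adjustment over the 10 pairs, however clearly its groups separate. The 0 therefore does not show that the ratios were unchanged. Ratios without overlap after LPS in both genotypes were Pdha1 to Pdhb and Idh3b to Idh3g. The latter was 2.31 to 2.43 under PBS and 2.14 to 2.20 after LPS in Ppara-flox hearts (log2 difference -0.13), and 2.35 to 2.52 and 2.20 to 2.28 in PPARα-deficient hearts (-0.11). The ratio of the transaminase genes Got1 and Got2 overlapped between the groups in Ppara-flox hearts, at 0.786 to 0.847 in Ppara-flox PBS and 0.762 to 0.894 in Ppara-flox LPS libraries. Mdh1 to Mdh2 differed without overlap between the genotypes under PBS (0.985 to 1.04 in Ppara-flox and 1.07 to 1.34 in PPARα-deficient libraries, log2 difference 0.23, two-sided exact permutation p = 0.0286, adjusted over the 10 pairs 0.0952).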

How the data were processed

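Gene-level tables of estimated counts, deposited by the authors for 16 heart libraries, were the starting point. The submitters' processing notes name the build GRCm38 and the tools DESeq2 1.30.1, StringTie 1.3.3b, HISAT and fastp 0.23.2. Their roles, the annotation and the strand setting of the counting are not given in the sources used here, so reads of overlapping antisense genes may be included. Per the labels' protocols, libraries came from a stranded KAPA kit. The deposited expected counts are whole numbers whose low values pile up at multiples of 4 (5293 entries at 3, 12837 at 4 and 7268 at 5), so how many reads 1 count stands for is unknown for totals of 65569134 to 75436023, and no intervals of counting error are given.

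Of 55421 lines, 27 symbols turned into dates were left out (0.0644% to 0.0861% of counts), and 116 repeated lines were summed. edgeR 4.0.16 in R 4.3.3 filtered genes (filterByExpr on the 4 groups), scaled libraries by TMM and fitted a quasi-likelihood model with 4 group means to all 16 libraries. P-values were adjusted by Benjamini-Hochberg over the 18713 genes tested, and SE is the absolute log2 fold change divided by the square root of F. Levels per kb use the joint exon length in GENCODE vM21, whose symbols and coordinates (GRCm38) were matched by name for all 32 genes. Ratios of paired genes were tested by two-sided exact permutation of log2 count ratios with a pseudocount of 1. The fitting code was tested on simulated data. Alternatives were RLE and upper-quartile factors, genes of the mitochondrial genome left out, DESeq2 1.42.0, limma-voom 3.58.1, other filters, counts divided by 4, the replicate number as a block, 8 libraries alone and each library left out. The block on the number series of the column headers was added after the data were seen. All 32 genes are named. Values in every library are given for the 2 to 4 genes of a step with the smallest adjusted p under LPS in Ppara-flox hearts, in the comparisons where they were called, and for Me1. The other genes are given by their test, and of the other pathway genes up to 4 with the smallest adjusted p in a comparison are named. The 32 genes and the lists were chosen with earlier results of these data known. Python 3.11.15 with pandas 2.3.3, scipy 1.17.1 and matplotlib 3.10.9 made the tables and plots.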

Additional observations from a re-analysis of the deposited data

Results flagged for a closer look

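In 6 of the 128 groups of 4 libraries (32 genes in 4 groups), the highest or lowest library lay apart from the other 3 by more than Dixon's critical share of the range of the group. Chance flags about 1 in 20 such groups. Pdhx, a structural subunit of the pyruvate dehydrogenase complex, was at 115.3 CPM in Ppara-flox PBS replicate 3, against 139.0 to 142.0 CPM in the other libraries of that group. The same gene was at 136.1 CPM in PPARα-deficient PBS replicate 1, against 142.5 to 143.2 CPM. Idh3a, the catalytic subunit of NAD-dependent isocitrate dehydrogenase, was at 360.0 CPM in Ppara-flox LPS replicate 4, against 397.9 to 403.9 CPM. Its partner Idh3g was at 259.2 CPM in PPARα-deficient LPS replicate 1, above 232.6 to 236.2 CPM in the others. Dlst, the core of the 2-oxoglutarate dehydrogenase complex, was at 181.0 CPM in Ppara-flox LPS replicate 2, against 198.5 to 199.97 CPM. Aco1, the cytosolic aconitase gene, was at 50.6 CPM in Ppara-flox PBS replicate 2, against 43.0 to 44.1 CPM.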

How the results depend on the processing

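No called change of the 32 genes changed sign in any alternative. Over 3264 pairs of a gene and an alternative, 3174 kept their side of the threshold, 74 lost a call and 16 gained one. Most of these pairs had no call to lose. The calls were 24 and 18 for LPS in Ppara-flox and PPARα-deficient hearts, 1 and 2 between genotypes under PBS and after LPS, and 0 for the interaction. Of the 24, 18, 1 and 2 calls, 6, 5, 0 and 1 were lost in at least 1 alternative. The number of genes that rose in PPARα-deficient hearts was 1 with upper-quartile factors instead of 3. After LPS the number higher in PPARα-deficient hearts was 0 with RLE factors, with no filter, with the block on the number series and with the 8 libraries alone, and 2 with DESeq2, instead of 1. With the replicate number as a block it was 0, and 45 instead of 72 of all genes were higher after LPS; among the 32 genes the block also ended the calls of Ogdhl (adjusted p = 0.0555) and Sucla2 (0.0605) in Ppara-flox and of Suclg1 (0.0624) and Me1 (0.0605) in PPARα-deficient hearts. Same-numbered libraries did not deviate together in every pair (correlations of -0.20 to 0.30 over the 1000 most variable genes), so the numbers were not taken to pair them. Over all genes, DESeq2 called 137 lower and 48 higher between the genotypes under PBS (75 and 6 in edgeR), 247 and 205 after LPS (159 and 72), and 30 and 24 in the interaction (0 and 0). With the 8 libraries alone 12 were higher under PBS and 25 after LPS, and with no filter 44 were higher after LPS. The interaction gave 1 lower and 3 higher with at least 1 CPM asked for in 8 libraries and with counts divided by 4. With each library left out in turn, 15 to 21 of the 32 genes fell and 3 to 4 rose in Ppara-flox hearts, and 13 to 14 fell and 1 to 3 rose in PPARα-deficient hearts. Between the genotypes 1 was lower under either treatment, 0 were higher under PBS and 0 to 1 after LPS. Over all genes 33 to 79 were higher after LPS, and the interaction gave 0 to 1 lower and 0 to 3 higher. The cause of these shifts was not tested. Among the 32 genes the SE of the LPS effect was widest for Suclg2 (0.16), Idh1 (0.15), Me2 (0.14) and Gpt2 (0.14). Differences near these sizes, and some larger ones, could not be told from the spread between libraries. Me2, for example, did not pass at a log2 fold change of 0.35 in PPARα-deficient hearts (adjusted p = 0.055 by edgeR).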
